A study of Mus musculus with 75 samples.

Results

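Tph2 encodes tryptophan hydroxylase 2, and it was taken by its symbol as 1 of 22781 genes counted in a mouse RNA-seq study of 75 libraries, 59 of them from white fat and 16 from muscle. It was picked for its levels in fat and its difference between diets in these same data, so those are described without a test. Tests were kept to nuclear genome, mitochondrial genome, interactions and relations across libraries. The study exchanged nuclear and mitochondrial genomes between 2 strains. The exchange lines were C57n:C3Hmt (C57 nucleus with C3H mitochondria) and C3Hn:C57mt (C3H nucleus with C57 mitochondria). The wild types were C57n:C57mt (C57BL6/J) and C3Hn:C3Hmt (C3H/HeN). All groups started on chow at weaning. The HFD groups received a high-fat diet between 6 and 12 to 13 weeks of age, while the chow groups stayed on chow. Fat came from the epididymal depot (eWAT, visceral, 29 libraries) and the inguinal depot (iWAT, subcutaneous, 30 libraries). Each depot, genotype and diet had 3 or 4 libraries, each from 1 animal, and muscle was taken from chow animals. No label names litters.

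Tryptophan hydroxylases carry out the rate-limiting step of serotonin synthesis, adding a hydroxyl group to tryptophan with tetrahydrobiopterin as cofactor. Tph2 is known as the enzyme of serotonergic neurons in the brainstem and gut wall, and its paralog Tph1 as the enzyme of enterochromaffin cells and other peripheral cells. Obese fat accumulates lipid-laden macrophages marked by genes such as Trem2 and Gpnmb, and these were among the cell types set against Tph2 here. In bulk tissue, fewer cells of a type and less RNA per cell cannot be told apart.

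Tph2 lies on chromosome 10 on the minus strand (NCBIM37, the assembly also called mm9), chr10:114515697-114622078, as ENSMUSG00000006764.8, and its 1 annotated coding transcript has 11 exons and 2626 exonic bases. The deposited transcript table held 1 Tph2 row, NM_173391, whose counts equalled the gene row in all 75 libraries. All Tph2 counts were therefore assigned to a transcript with a single annotated start. The 250 bases before that start are shown because it is the only annotated start. Where transcription of Tph2 starts in fat was not measured. The bases were read from the NCBIM37 genome at chr10:114622079-114622328, minus strand, and are identical to the first 250 bases of the RefSeq promoter entry (GRCm38.p6).
Tph2 upstream: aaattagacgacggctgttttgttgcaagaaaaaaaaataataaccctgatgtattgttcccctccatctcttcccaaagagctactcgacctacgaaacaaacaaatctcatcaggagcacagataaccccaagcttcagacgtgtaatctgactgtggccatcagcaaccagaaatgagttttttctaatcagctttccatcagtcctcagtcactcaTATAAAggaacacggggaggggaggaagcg
The capitals mark TATAAA, which begins 30 bases before the start on the gene's own strand. Of 32851 RefSeq promoter windows of the same 250 bases, 12.4% hold TATAAA on either strand. CCAAT and TTGCGCAA were searched on both strands and had no match in this window, while 33.8% of all windows hold CCAAT and 0.164% hold TTGCGCAA. The C3H sequence of this region was not used here.

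Tph2 levels are given in CPM, the usual depth-scaled count (counts per M counts assigned to genes, with M for mega), where 3 counts come to between 0.0953 and 0.191 CPM. The libraries held 15.7 to 31.5 M counts. Across the 59 fat libraries Tph2 ran from 0.109 to 61.4 CPM with a median of 4.72 CPM. It was under 1 CPM in 20 fat libraries and above 5 CPM in 29. Adipoq, which encodes the adipocyte hormone adiponectin, was at 545 CPM or more in each of the 59 fat libraries. Of the 29 eWAT libraries, 7 carried epithelial RNA, with the epithelial list more than 2 log2 units above its eWAT median. No library of the 75 went against its nuclear label over 164 genes with a gap of at least 2.5 log2 units between the nuclei. Those genes are defined by that gap, so agreement with the labels is in part built in. Inguinal fat of a C57n:C3Hmt chow animal and inguinal fat of a C3Hn:C3Hmt HFD animal stood apart from their groups in several genes.

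In eWAT of C57n:C3Hmt mice, Tph2 was at 0.505, 0.426 and 11.1 CPM on HFD, against 0.430, 0.476, 0.402 and 0.109 CPM on chow. A single HFD library was far above the other 6 libraries of that genotype. In eWAT of C57n:C57mt mice, Tph2 was at 10.2, 6.02, 9.36 and 19.7 CPM on HFD, against 0.478, 0.542, 0.114 and 0.699 CPM on chow. Every HFD library of this genotype was above every chow library. In eWAT of C3Hn:C57mt mice, Tph2 was at 53.2, 40.6 and 24.7 CPM on HFD, against 61.4, 0.830, 6.27 and 46.8 CPM on chow. The chow libraries of this genotype were split, with the highest Tph2 value of the series and a value below 1 CPM in the same group. In eWAT of C3Hn:C3Hmt mice, Tph2 was at 4.72, 24.5, 40.9 and 23.2 CPM on HFD, against 1.32, 6.70 and 1.97 CPM on chow, and the lowest HFD library, which carried epithelial RNA, lay inside the chow range.

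In iWAT of C57n:C3Hmt mice, Tph2 was at 2.34, 0.555, 1.79 and 18.4 CPM on HFD, against 18.6, 0.173, 0.174 and 0.391 CPM on chow. Each diet had a single library near 18 CPM and the other libraries of that genotype were far lower. In iWAT of C57n:C57mt mice, Tph2 was at 6.40, 18.2, 12.1 and 7.62 CPM on HFD, against 0.215, 0.355, 0.279 and 0.423 CPM on chow, again with no overlap. In iWAT of C3Hn:C57mt mice, Tph2 was at 15.8, 11.5 and 27.2 CPM on HFD, against 3.63, 16.3, 4.21 and 15.4 CPM on chow. In iWAT of C3Hn:C3Hmt mice, Tph2 was at 6.88, 12.3 and 0.715 CPM on HFD, against 3.75, 4.26, 1.50 and 5.42 CPM on chow, so both C3Hn genotypes overlapped between diets in this depot. The HFD library at 0.715 CPM was the only library of its sequencing run, and its lymphocyte marker Cd79a was at 774 CPM, against 0.107 and 0.319 CPM in the other 2 libraries of its group.

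**Figure D1:**
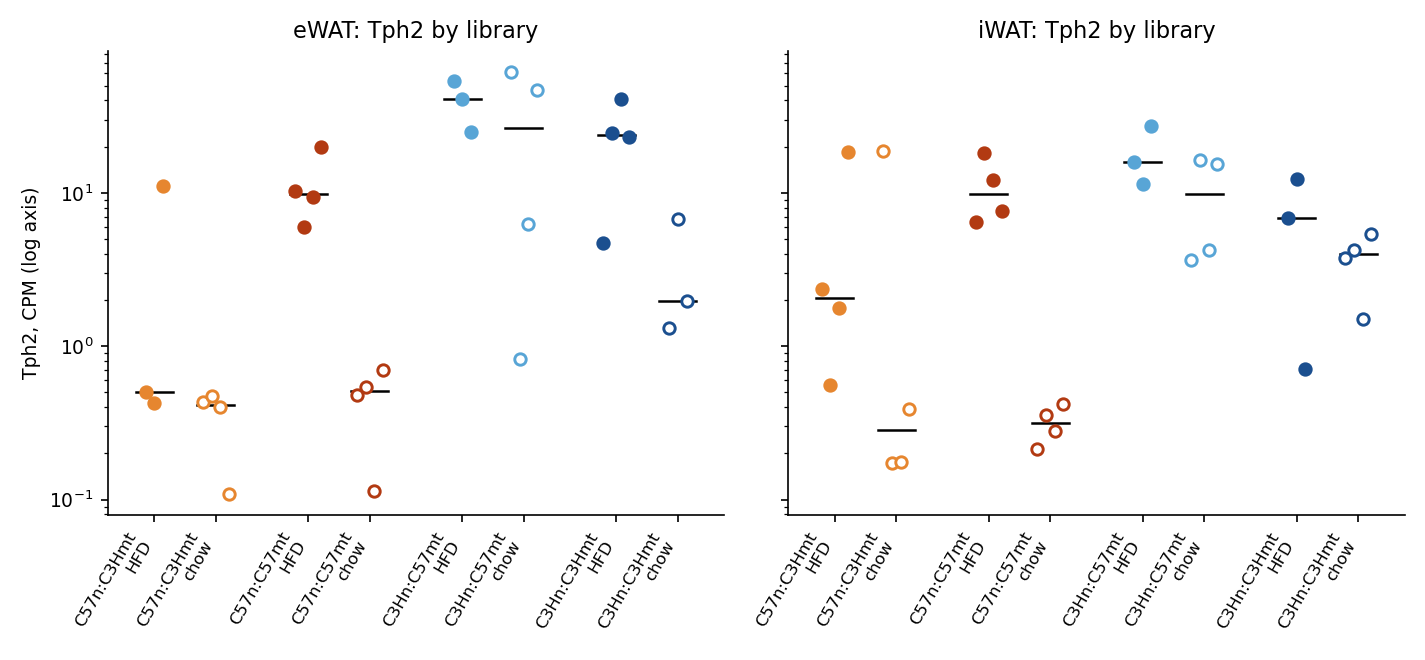
Tph2 in each fat library, in CPM on a log axis, by genotype and diet, with eWAT on the left panel and iWAT on the right. Filled points are HFD libraries, open points chow libraries, and bars group medians (3 or 4 libraries a group). In C57n:C57mt mice every HFD library is above every chow library in both depots, while in C57n:C3Hmt mice single libraries stand far above the rest.

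Ordered by median, the fat groups ran from 40.6 CPM in eWAT of C3Hn:C57mt mice on HFD to 0.283 CPM in iWAT of C57n:C3Hmt mice on chow. Of the 15 pairs of neighbours in that order, 14 had overlapping ranges. The pair that did not overlap separated eWAT of C3Hn:C3Hmt mice on chow, with a median of 1.97 CPM and a lowest library at 1.32 CPM, from eWAT of C57n:C57mt mice on chow, with a median of 0.510 CPM and a highest library at 0.699 CPM. The 4 chow groups with a C57 nucleus were among the 5 lowest. In muscle, Tph2 had 0 to 8 counts a library, at most 0.366 CPM.

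The difference between diets was described with edgeR's quasi-likelihood fit and carries no p-value, because Tph2 was chosen on it. In eWAT the log2 fold change of HFD over chow was 4.64 ± 1.15 (SE) in C57n:C57mt mice, 3.46 ± 1.15 in C57n:C3Hmt mice, 2.73 ± 1.14 in C3Hn:C3Hmt mice and 0.35 ± 1.02 in C3Hn:C57mt mice. In iWAT it was 5.13 ± 1.33 in C57n:C57mt mice, and 0.36 ± 1.08, 0.70 ± 1.16 and 0.80 ± 1.15 in C57n:C3Hmt, C3Hn:C3Hmt and C3Hn:C57mt mice. Wild-type C57n:C57mt mice thus had the largest fitted difference in both depots. The C57n:C3Hmt chow library at 18.6 CPM weighs on the inguinal mean over genotypes, which was 1.75 with it and 2.76 without it. The C57n:C3Hmt HFD library at 11.1 CPM weighs on the epididymal mean, which was 2.79 with it and 2.02 without it. All chow libraries came from 1 sequencing run and the HFD libraries from 3 others, so diet and run cannot be told apart. With differences among the HFD runs in the fit, the mean was 2.80 in eWAT and 0.45 in iWAT. That fit weighs the HFD runs equally, and 1 of them held a single iWAT library, the C3Hn:C3Hmt one at 0.715 CPM. The part of that library in the lower iWAT value was not tested. Of all genes tested, 41% were called at an adjusted p under 0.05 between diets in eWAT and 37.6% in iWAT.

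Macrophage genes moved with the diet as well. Of 19 measured macrophage genes, 14 rose and 0 fell on HFD in eWAT, and 11 rose and 0 fell in iWAT, by edgeR. Ctss, which encodes a lysosomal protease, rose by 1.64 ± 0.36 log2 units in eWAT (adjusted p = 0.00117 in edgeR) and by 0.42 ± 0.15 in iWAT (adjusted p = 0.0252). Of 15 measured genes of lipid-associated macrophages, 11 rose and 0 fell in eWAT, and 8 rose and 0 fell in iWAT. Acp5, a phosphatase gene and the most abundant of that list, had -0.21 ± 0.26 in eWAT and -0.16 ± 0.11 in iWAT, and was not called. Of 16 measured adipocyte genes, 1 rose and 6 fell in eWAT, and 1 rose and 7 fell in iWAT. Over all genes 18.4% were called higher and 22.7% lower on HFD in eWAT, and 21.4% higher and 16.2% lower in iWAT. In iWAT the list of lymphocyte genes had a median of 6.16 mean log2 CPM in C57n chow libraries and 2.24 in C57n HFD libraries. In C3Hn libraries it was 5.22 on chow and -0.2 on HFD, and the ranges of the diets overlapped with either nucleus. The part of any of these cells in the Tph2 values was not tested.

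The nuclear genome gave the 1 call among 18 tests of Tph2. In eWAT on chow, Tph2 ranged from 0.109 to 0.699 CPM in the 8 libraries with a C57 nucleus, against 0.830 to 61.4 CPM in the 7 libraries with a C3H nucleus. The sets did not overlap, and Tph2 was lower with the C57 nucleus, with a log2 fold change of -4.62 ± 0.82 and an adjusted p of 0.000593 (edgeR quasi-likelihood test, Benjamini-Hochberg over 17781 genes). Of all genes 15.1% were called in this comparison, 7.99% as higher and 7.09% as lower with the C57 nucleus. The call was kept without each library in turn, with adjusted p-values between 9.01e-05 and 0.00312, and without the epithelial libraries, where it was -4.28 ± 0.94 with an adjusted p of 0.00555. The chow libraries of the 2 nuclei ran in different lanes except for 1 C57n library at 0.478 CPM, which shared its lane with the 7 C3Hn libraries, so nucleus and lane can hardly be told apart on chow.

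Marker genes of lipid-laden macrophages moved with the nucleus in the same libraries. Their list ran from 3.22 to 4.33 mean log2 CPM in C57n eWAT on chow, against 3.86 to 7.20 in C3Hn eWAT on chow. Of its 15 measured genes 9 were called lower with the C57 nucleus and 0 higher, with a median log2 fold change of -2.16, against 0.07 over all genes. Of 19 measured macrophage genes 8 were called lower and 0 higher. Trem2, a lipid receptor of these macrophages, averaged 6.00 ± 2.53 CPM in C57n eWAT on chow (SD, n = 8) and 104 ± 82.2 CPM in C3Hn eWAT on chow (SD, n = 7). Of the 16 measured adipocyte genes 0 were called in either direction by edgeR. The epithelial list ran from 0.339 to 8.82 mean log2 CPM in the C57n libraries, against -0.841 to 6.72 in the C3Hn libraries, and 1 of its 10 measured genes was called higher. The part of macrophages in the Tph2 difference between nuclei was not tested.

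In the other 3 comparisons of nuclei edgeR did not call Tph2. In eWAT on HFD it ranged from 0.426 to 19.7 CPM with a median of 9.36 CPM in 7 C57n libraries, against 4.72 to 53.2 CPM with a median of 24.7 CPM in 7 C3Hn libraries. The log2 fold change was -2.11 ± 0.76 with an adjusted p of 0.0703 in edgeR, but 0.019 in DESeq2, and it passed without the C57n:C3Hmt HFD library at 11.1 CPM (-3.66, adjusted p = 0.00573 in edgeR) and without the C3Hn:C3Hmt HFD library at 4.72 CPM (-2.28, 0.0477). Within the run that held 8 of these libraries the median was 9.36 CPM in 3 C57n libraries and 40.6 CPM in 5 C3Hn libraries, and within the run that held the other 6 it was 5.78 CPM in 4 C57n libraries and 24.0 CPM in 2 C3Hn libraries. In iWAT on chow, 7 of the 8 C57n libraries lay between 0.173 and 0.423 CPM and the eighth at 18.6 CPM, against 1.50 to 16.3 CPM in the 8 C3Hn libraries. The log2 fold change was -2.32 ± 0.83 with an adjusted p of 0.0734 in edgeR, and without the library at 18.6 CPM it was -4.39 with an adjusted p of 0.000131. It passed in DESeq2 (adjusted p = 0.0157). With run as a covariate in edgeR the adjusted p was 0.0415. All chow libraries shared 1 run, so that covariate could not adjust this comparison for run. The C57n and C3Hn libraries of that set ran in separate lanes, so nucleus and lane cannot be told apart there. In iWAT on HFD the ranges overlapped, 0.555 to 18.4 CPM in 8 C57n libraries and 0.715 to 27.2 CPM in 6 C3Hn libraries, and the log2 fold change was -0.32 ± 0.82 (95% interval -2.01 to 1.36, adjusted p = 0.821 in edgeR). Within the run that held 6 of these libraries the median was 2.34 CPM in 3 C57n libraries and 11.5 CPM in 3 C3Hn libraries, and within the run that held 7 it was 12.1 CPM in 5 C57n libraries and 19.8 CPM in 2 C3Hn libraries. Lipid-associated macrophage genes were called lower with the C57 nucleus in these comparisons too, 10 of 15 in eWAT on HFD with 0 higher, 9 of 15 in iWAT on chow with 1 higher, and 7 of 15 in iWAT on HFD with 2 higher. Of 19 general macrophage genes, 7 were lower and 1 higher in eWAT on HFD, 1 lower and 2 higher in iWAT on chow, and 5 lower and 4 higher in iWAT on HFD. Of 16 adipocyte genes, 5 were higher and 0 lower with the C57 nucleus in eWAT on HFD, 1 higher and 1 lower in iWAT on chow, and 6 higher and 0 lower in iWAT on HFD. Of all genes 5.55% were called higher and 7.55% lower with the C57 nucleus in eWAT on HFD, 5.71% higher and 6% lower in iWAT on chow, and 8.26% higher and 8.03% lower in iWAT on HFD.

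No exchange of mitochondria changed Tph2 past the threshold. Of 12 edgeR tests on mitochondria and on its interaction with diet, 0 were called by edgeR and 0 by DESeq2, and 3 had an unadjusted p under 0.05. Across all genes 0% were called in 11 of them and 0.0112% in the other, which compared C3Hn:C57mt with C3Hn:C3Hmt eWAT on HFD. In eWAT on chow, Tph2 averaged 28.8 ± 29.9 CPM in C3Hn:C57mt mice (SD, n = 4) and 3.33 ± 2.94 CPM in C3Hn:C3Hmt mice (SD, n = 3), a log2 fold change of 2.93 ± 1.15 with an adjusted p of 0.346 in edgeR. In iWAT on chow, Tph2 averaged 4.83 ± 9.17 CPM in C57n:C3Hmt mice and 0.318 ± 0.090 CPM in C57n:C57mt mice (SD, n = 4 each), a log2 fold change of 3.93 ± 1.28 with an adjusted p of 1 in edgeR. That difference rested on the library at 18.6 CPM and was -0.23 without it. The intervals of these tests were wide, for example -3.69 to 0.79 for C57n:C3Hmt over C57n:C57mt eWAT on HFD, so sizes within them were not resolved with 3 or 4 libraries a group. That difference, -1.45 ± 1.08, was -4.56 without the C57n:C3Hmt HFD library at 11.1 CPM.

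The fitted diet difference was larger with the C57 nucleus by 2.51 ± 1.06 log2 units in eWAT (adjusted p = 0.201 in edgeR) and by 1.99 ± 1.17 in iWAT (adjusted p = 0.252). Neither interaction passed the threshold, against 0% of all genes in eWAT and 0.716% in iWAT, where 0.225% had the higher and 0.491% the lower diet difference with the C57 nucleus. Without the C57n:C3Hmt chow library at 18.6 CPM the inguinal interaction was 4.03 with an adjusted p of 0.0152 in edgeR. The interaction is built from the diet differences on which Tph2 was chosen, and this library stands out by its Tph2 value. That adjusted p is therefore no support for an interaction. Without the C57n:C3Hmt HFD library at 11.1 CPM the epididymal interaction was 0.96, and it was not called without any single library.

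**Figure D2:**
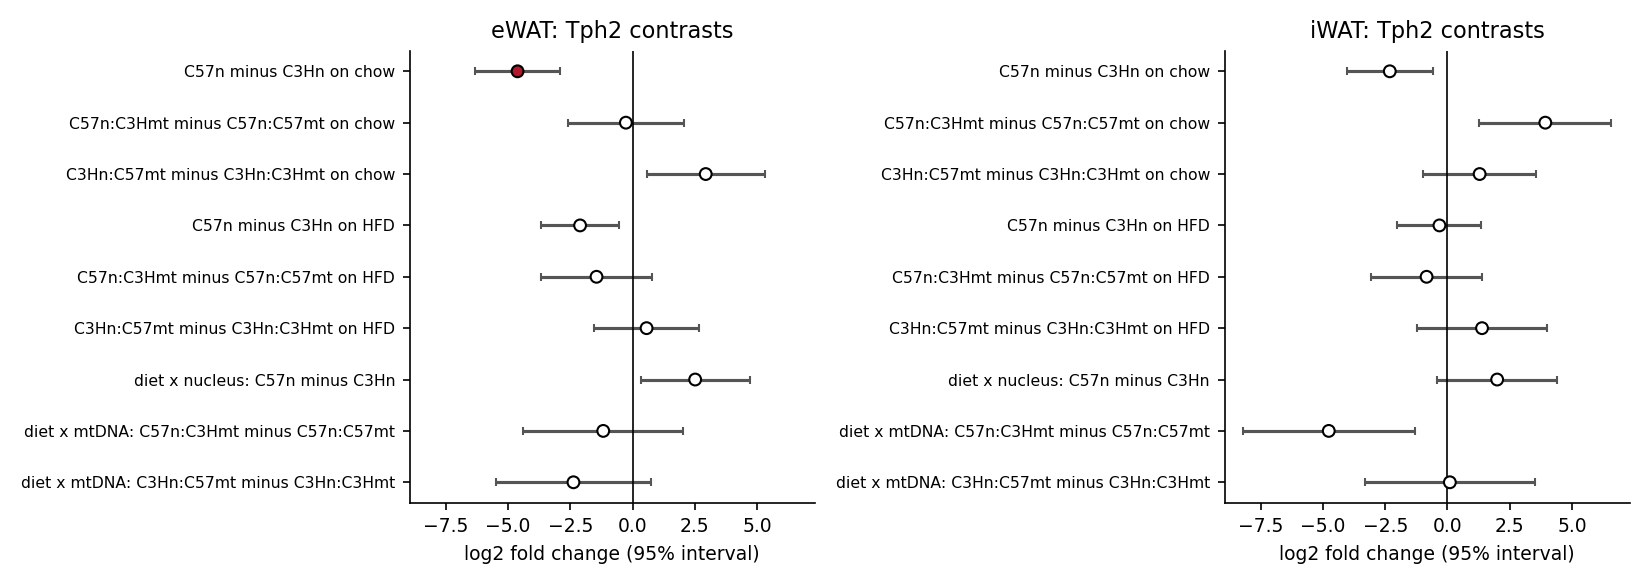
Log2 fold changes of Tph2 with 95% intervals in the 9 tests of each depot, from edgeR fits of 29 eWAT and 30 iWAT libraries. The filled point is the single test with an adjusted p under 0.05, the C57n minus C3Hn difference in eWAT on chow (-4.62), and open points did not pass.

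Tph2 was next set against 10 cell type lists across libraries, within each depot and diet, as Pearson's r between the log2 CPM of Tph2 and the mean log2 CPM of the list. There were 40 such relations with 100000 permutations each, two-sided, and p-values were adjusted over the 40. Each point is a library of a different animal, and libraries share runs and genotypes. By Pearson's r 6 of these relations passed, each with a macrophage list. The lipid-associated macrophage list had r = 0.914 in eWAT on HFD (n = 14, permutation p = 1e-05, the smallest these permutations can give, adjusted p = 0.000267), with Spearman's rho of 0.912 (permutation p = 3e-05). It had r = 0.928 in eWAT on chow (n = 15, permutation p = 2e-05, adjusted p = 0.000267), with rho of 0.807 (permutation p = 0.00059). In iWAT r was 0.773 on HFD (n = 14, permutation p = 0.00106, adjusted p = 0.00707, rho 0.697, permutation p = 0.00709) and 0.911 on chow (n = 16, permutation p = 2e-05, adjusted p = 0.000267, rho 0.812, permutation p = 0.00023). Without the 2 libraries farthest from the median list level, r was 0.850 on HFD and 0.905 on chow in eWAT, and 0.706 on HFD and 0.900 on chow in iWAT. The adjusted p of the iWAT relation on HFD was then 0.0535.

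The general macrophage list, led in abundance by Lyzs, which encodes lysozyme, and Ctss, passed in eWAT. There r was 0.820 on HFD (n = 14, permutation p = 0.00016, adjusted p = 0.00128, rho 0.873, permutation p = 0.00014) and 0.871 on chow (n = 15, permutation p = 3e-05, adjusted p = 0.0003, rho 0.714, permutation p = 0.00388), and without the 2 farthest libraries it was 0.925 on HFD and 0.813 on chow. In iWAT r was 0.671 on HFD (n = 14, permutation p = 0.0088, adjusted p = 0.0503, rho 0.578, permutation p = 0.0333) and 0.343 on chow (n = 16, permutation p = 0.192, adjusted p = 0.319, rho 0.344, permutation p = 0.191). Whether the depots differ in r was not tested.

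The adipocyte list, led in abundance by the lipid carrier gene Fabp4 and the lipid droplet gene Cidec, gave no call by Pearson's r over all libraries of a set. In eWAT on HFD r was -0.664 (n = 14, permutation p = 0.0119, adjusted p = 0.0586), while rho was -0.727 and passed (permutation p = 0.00414, adjusted p = 0.0207), and in the other 3 sets it lay between 0.143 and 0.247 with adjusted p-values of 0.521 to 0.680 from the permutations. Without the libraries with epithelial RNA, r with the adipocyte list was -0.883 in eWAT on chow and -0.675 in eWAT on HFD. Further lists passed in both eWAT sets without those libraries, so passing was not limited to the macrophage lists there. Among the other lists, mast cells, which are known to express Tph1, gave r between -0.159 and 0.471 with no call. Neuron and Schwann cell genes gave r between -0.456 and 0.445 with no call. Lymphocyte genes gave a negative r in all 4 sets, between -0.603 and -0.218, and the lowest adjusted p among them was 0.0772. In iWAT on chow the lymphocyte list passed by rank (rho -0.709, permutation adjusted p = 0.0207) and after subtraction of group means (r = -0.668, permutation adjusted p = 0.0266). The highest r outside the macrophage lists were 0.633 with endothelial genes in iWAT on HFD and 0.620 with fibroblast and progenitor genes in eWAT on chow, both with an adjusted p of 0.0586. By rank, the fibroblast and progenitor list passed in eWAT on chow (rho 0.675, permutation adjusted p = 0.0289) and in iWAT on chow (rho 0.635, 0.0366), and the epithelial list in eWAT on HFD (rho -0.741, 0.0207). After subtraction of group means the mesothelial list passed in iWAT on HFD (r = 0.678, permutation adjusted p = 0.0489).

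**Figure D3:**
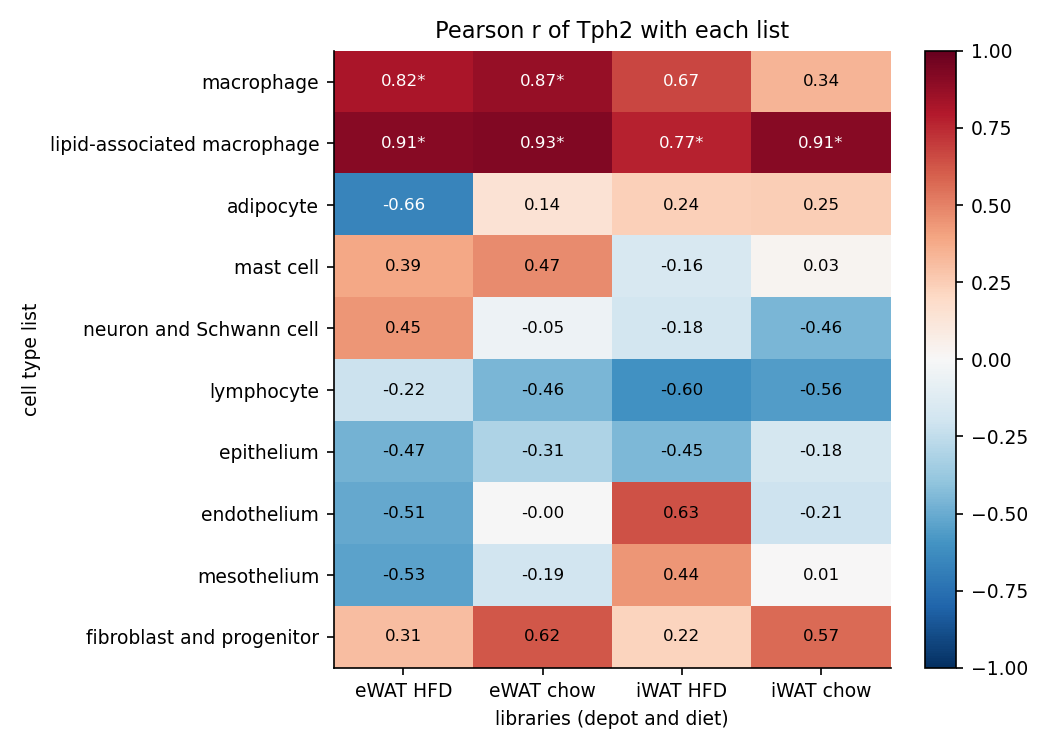
Pearson's r between Tph2 and 10 cell type lists (rows) across the libraries of each depot and diet (columns, 14 to 16 libraries each); red is positive, blue negative, and an asterisk marks an adjusted p of Pearson's r under 0.05 over the 40 relations. With all libraries of each set, the 6 asterisks are all in the 2 macrophage rows.

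Since Tph2 and the macrophage lists both differed between nuclei, the relations were also computed within each nucleus, a choice made after seeing the data. Over the 8 combinations of depot, diet and nucleus, with 6 to 8 libraries each, r of Tph2 with the lipid-associated macrophage list was positive in 8 of 8, between 0.298 and 0.966, and passed in 3 after adjustment over 24 exact permutation tests. These 3 were C57n eWAT on HFD (r = 0.957, n = 7, exact permutation p = 0.00675, adjusted p = 0.0467), C3Hn eWAT on chow (r = 0.895, n = 7, exact permutation p = 0.0117, adjusted p = 0.0468) and C3Hn iWAT on HFD (r = 0.966, n = 6, exact permutation p = 0.00972, adjusted p = 0.0467). Without the 2 farthest libraries r was 0.624, 0.839 and 0.402 in these 3 sets. The C3Hn iWAT set on HFD held the C3Hn:C3Hmt library at 0.715 CPM, alone in its sequencing run. That library was the lowest of its set in Tph2 and in the lipid-associated list, at 3.60 mean log2 CPM against 5.245 or more. It was also the highest in the lymphocyte list, at 7.74 mean log2 CPM. Its own part in that r was not tested. The general macrophage list passed within C57n eWAT on HFD (r = 0.948) and within C3Hn eWAT on chow (r = 0.893), and the adipocyte list within C57n eWAT on HFD (r = -0.922), each with an adjusted p of 0.0467 from exact permutation. These r were 0.711, 0.839 and -0.895 without the 2 farthest libraries. In C3Hn eWAT on chow the ranks of Tph2 and of the lipid-associated macrophage list were in the same order in all 7 libraries. The relation with that list in C57n iWAT on chow, r = 0.888, rested on the library at 18.6 CPM and was -0.265 without the 2 farthest libraries. In C57n eWAT on chow, where Tph2 had only 3 to 19 counts a library, r with the lipid-associated list was 0.298. After subtraction of genotype group means, the relations of eWAT on HFD lost their call (lipid-associated list r = 0.851, adjusted p = 0.0996 from permutations within groups), while in eWAT on chow, iWAT on HFD and iWAT on chow the adjusted p of this list was 0.0489 each.

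**Figure D4:**
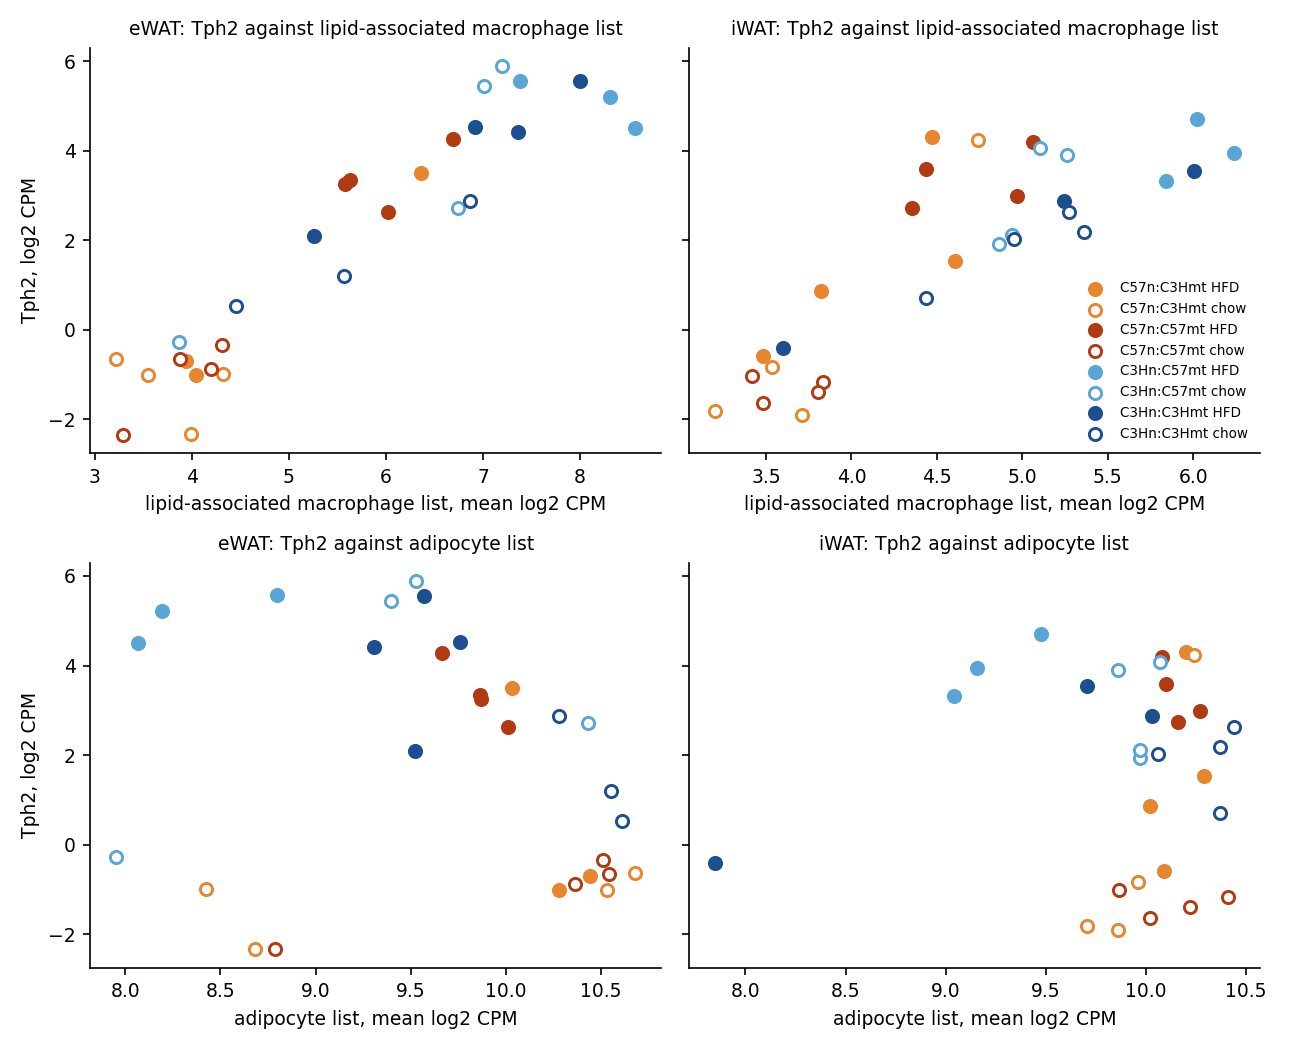
Tph2 (log2 CPM) against the mean log2 CPM of the lipid-associated macrophage list (upper panels) and the adipocyte list (lower panels), 1 point a library, with eWAT on the left and iWAT on the right; filled points are HFD, open points chow. In eWAT the points rise together with the macrophage list, from C57n chow libraries at 3.22 to 4.33 on the list to C3Hn HFD libraries at 5.26 to 8.57.

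Tph2 levels in the depots of an animal were related. Both depots were sequenced for 12 HFD and 8 chow animals. Across the 12 HFD animals r between log2 CPM in eWAT and in iWAT was 0.861 (permutation p = 0.00154, adjusted over 2 relations 0.00198), with rho of 0.783 (permutation p = 0.00377), and without the 2 animals farthest from the median it was 0.776 (permutation p = 0.00236). Across the 8 chow animals r was 0.866 (exact permutation p = 0.00198, adjusted p = 0.00198), with rho of 0.905 (exact permutation p = 0.00456), but without the 2 farthest animals it was 0.654 (n = 6, exact permutation p = 0.144), and it no longer passed. After subtraction of genotype means r was 0.921 on HFD (permutation p within genotypes = 0.00363) and 0.917 on chow (permutation p within genotypes = 0.0841).

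Tph2 was higher in eWAT than in iWAT in 8 of 12 HFD animals and in 6 of 8 chow animals. All 6 HFD animals with a C3H nucleus had the higher value in eWAT, for example 53.2 CPM in eWAT against 27.2 CPM in iWAT of animal 2102. Animal 3204, a chow C3Hn:C57mt mouse, had 46.8 CPM in eWAT and 15.4 CPM in iWAT, and animal 2201 of the same group had 0.830 CPM in eWAT and 3.63 CPM in iWAT. The eWAT libraries of animals 3204 and 2201 were both among the 7 with epithelial RNA. The median difference of eWAT minus iWAT was 0.69 log2 units on HFD, with a range of -1.56 to 2.49, and 0.60 on chow, with a range of -2.20 to 1.55, given as a description.

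**Figure D5:**
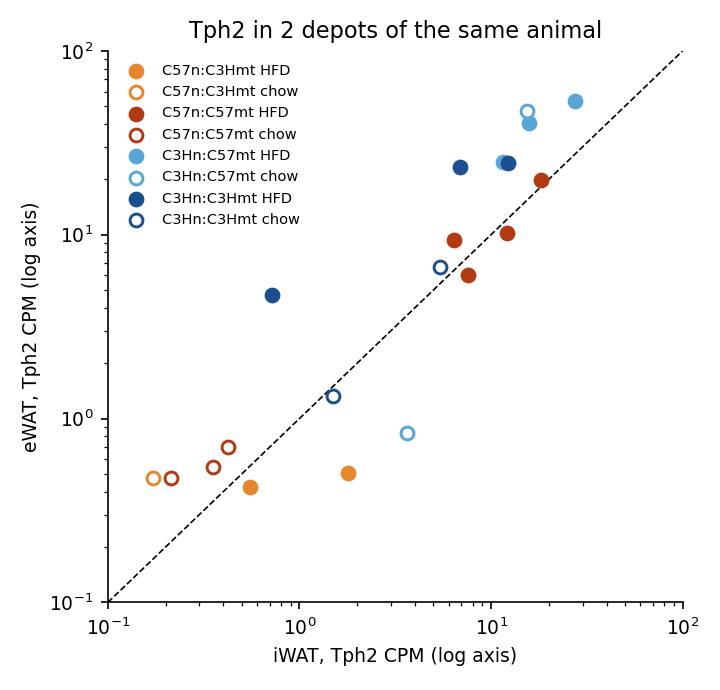
Tph2 in eWAT (vertical) against iWAT (horizontal) of the same animal, in CPM on log axes, for 12 HFD animals (filled) and 8 chow animals (open); the dashed line marks equal levels. The points follow the line, with 14 of the 20 animals above it.

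The genes most alike to Tph2 in pattern were found by Pearson's r of log2 CPM over the 59 fat libraries among 18422 other genes, a ranking that carries no p-value and includes differences between diets, depots and genotypes. Among the 6 highest were D3Bwg0562e (0.924), Itgad (0.915), which encodes a leukocyte integrin subunit, Mrc2 (0.914), which encodes a collagen uptake receptor, Ubd (0.910), which encodes a ubiquitin-like modifier, and Postn (0.892), which encodes the matrix protein periostin. Itgad had 41.1 ± 35.7 CPM in C3Hn iWAT on HFD (SD, n = 6) and 12.5 ± 13.9 CPM in C3Hn iWAT on chow (SD, n = 8). After subtraction of the 16 group means, the 6 highest included Mrc2 (0.896), Saa3 (0.891), an acute-phase serum amyloid gene, 1110032E23Rik (0.886), Lbp (0.884), which encodes a lipopolysaccharide-binding protein, and Tfpi2 (0.876), a protease inhibitor gene. Mrc2 was in both sets. Lep, which encodes the adipocyte hormone leptin and was looked up after its values were seen, had r of 0.749 over the 59 libraries and 0.825 after subtraction of group means, and ranked 190 and 32. Mest, an adipocyte gene of fat expansion, had 0.824 and 0.805, and ranked 37 and 52. Adipoq had 0.118 and 0.502.

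The C57n:C3Hmt chow library at 18.6 CPM, from inguinal fat of animal 2105, also held several of these genes at high levels. It was among the libraries over which they were ranked, so this describes the ranking and is not separate support for it. Saa3 was at 95.6 CPM there, against 1.30, 4.49 and 0.743 CPM in its 3 group mates. Mrc2 was at 245 CPM, against at most 21.8 CPM in the 3 mates. Lep was at 3867 CPM, against 261, 551 and 918 CPM, and Mest at 1076 CPM, against 21.8, 59.5 and 36.6 CPM. Trem2 was at 10.4 CPM, against 0.866, 2.27 and 1.60 CPM, and Emr1, a general macrophage gene, at 47.0 CPM, against 23.6, 39.2 and 27.3 CPM. Cd79a, the B lymphocyte gene, was at 4.62 CPM there, against 322, 254 and 209 CPM in the mates, and the part of lymphoid tissue in these differences was not tested. The 2 C57n:C3Hmt HFD libraries that were high in Tph2, at 11.1 CPM in eWAT and 18.4 CPM in iWAT, also had the highest Lep of their groups, at 5271 and 3829 CPM, and the highest Mest, which was at 1308 CPM in the eWAT library.

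Genes of serotonin synthesis and its cofactor, transport and breakdown, receptors, the kynurenine route of tryptophan and serotonergic neuron factors were counted without Tph2. In eWAT 4 of 36 measured genes rose and 7 fell on HFD, against 18.4% higher and 22.7% lower over all genes. In iWAT 5 of 31 measured genes rose and 4 fell, against 21.4% higher and 16.2% lower over all genes. These counts are near or below the shares of all genes. In eWAT the epithelial list moved with the diet, with 9 of 10 measured genes lower on HFD and 0 higher, and its part in the pathway counts was not tested.

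Among cofactor genes, Gchfr, whose product binds and restrains the first enzyme of tetrahydrobiopterin synthesis, fell on HFD by 2.13 ± 0.35 log2 units in eWAT (adjusted p = 7.53e-05 in edgeR) and by 1.21 ± 0.26 in iWAT (adjusted p = 0.000742). Spr, which encodes the last enzyme of that route, fell by 0.29 ± 0.12 in eWAT and by 0.42 ± 0.08 in iWAT. Pts, another enzyme gene of the route, fell by 0.31 ± 0.11 in eWAT. Dnajc12, which encodes a co-chaperone of the aromatic amino acid hydroxylases, rose by 0.49 ± 0.11 in iWAT.

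Among receptors, Htr2b rose on HFD by 1.67 ± 0.34 in eWAT (adjusted p = 0.000673 in edgeR) and by 1.18 ± 0.45 in iWAT (adjusted p = 0.0401), and Htr2a rose by 1.35 ± 0.40 in eWAT. Htr2b was also lower with the C57 nucleus in all 4 comparisons of nuclei, with 0.214 ± 0.171 CPM in C57n eWAT on chow (SD, n = 8) and 2.93 ± 2.01 CPM in C3Hn eWAT on chow (SD, n = 7), a log2 fold change of -4.08 ± 0.51 (adjusted p = 7.21e-06). Gchfr was lower with the C57 nucleus in all 4 comparisons as well, with log2 fold changes between -4.26 and -3.32. Slc6a4, the serotonin transporter gene, was lower with the C57 nucleus in eWAT on chow, with -1.33 ± 0.37 (adjusted p = 0.0183). Aldh2, an aldehyde dehydrogenase gene, went the other way, higher with the C57 nucleus in eWAT on HFD (0.66 ± 0.19, adjusted p = 0.0254) and in iWAT on HFD (0.71 ± 0.17, adjusted p = 0.00427). Of the serotonin and tryptophan genes, 3 were called higher and 6 lower with the C57 nucleus in eWAT on chow, 3 higher and 4 lower in eWAT on HFD, 0 higher and 4 lower in iWAT on chow, and 2 higher and 7 lower in iWAT on HFD by edgeR. Over all genes 15.1% and 13.1% were called between nuclei in eWAT on chow and HFD, and 11.7% and 16.3% in iWAT.

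Of breakdown and transport genes, Maoa, which encodes a serotonin-degrading oxidase, rose on HFD by 0.85 ± 0.17 in eWAT and by 0.67 ± 0.16 in iWAT. Aldh2, whose product acts after it, fell by 0.54 ± 0.14 in eWAT and by 0.47 ± 0.11 in iWAT. Slc18a2, the vesicular monoamine transporter gene, rose by 0.78 ± 0.21 in iWAT. In the kynurenine route Kmo rose by 0.48 ± 0.17 in eWAT. Indo, the older symbol of an indoleamine dioxygenase gene, had a log2 fold change of -3.80 ± 1.27 there (adjusted p = 0.0204 in edgeR). In C57n eWAT on chow Indo averaged 84.4 ± 136 CPM (SD, n = 8), but its median was 0.406 CPM, against 0.265 CPM on HFD. Of the neuron factors, Gata2 fell by 1.32 ± 0.36 in eWAT and 0.30 ± 0.12 in iWAT and Gata3 fell by 2.63 ± 0.80 in eWAT, both being transcription factor genes that other cell types use as well. In C3Hn eWAT on chow Gata3 averaged 26.8 ± 68.2 CPM (SD, n = 7), but its median was 0.417 CPM, against 0.699 CPM on HFD. The part of epithelial RNA in the Indo and Gata3 values was not tested. Fev, the transcription factor gene that defines serotonergic neurons, had a median of 0 CPM in each set of depot, diet and nucleus.

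Ddc, the decarboxylase gene of the second step of serotonin synthesis, averaged between 0.446 and 1.82 CPM over the sets of depot, diet and nucleus, and its diet log2 fold change was -0.79 ± 0.63 in eWAT (adjusted p = 0.325 in edgeR) and -0.21 ± 0.33 in iWAT (adjusted p = 0.650). Slc6a4 averaged between 1.07 and 2.59 CPM and was not called between diets, with 0.33 ± 0.26 in eWAT (adjusted p = 0.321) and 0.02 ± 0.17 in iWAT (adjusted p = 0.928).

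Tph1 was lower than Tph2 in most fat libraries when each was divided by the length of its longest coding transcript. Per kilobase of its longest coding transcript (2626 bases for Tph2, 2042 for Tph1), Tph2 averaged 3.97 ± 5.36 CPM per kb over the 59 fat libraries and Tph1 0.237 ± 0.186 CPM per kb (SD), and Tph2 was the higher in 48 of them. Of the 11 libraries in which it was not, 9 were C57n chow libraries. On HFD, Tph2 was above Tph1 per kb in 27 of 28 fat libraries. In muscle Tph1 was the higher of the pair in 16 of 16 libraries, with group means of 0.418 to 0.596 CPM per kb. The diet log2 fold change of Tph1 was -0.28 ± 0.40 in eWAT (adjusted p = 0.611 in edgeR) and 0.24 ± 0.25 in iWAT (adjusted p = 0.468), and between nuclei it was not called in any of the 4 comparisons by edgeR (adjusted p between 0.187 and 0.802). The RefSeq Tph1 transcript row, NM_009414, was listed for chow libraries and had counts in 16 of 16 muscle libraries, from 4.25 to 31.3, and in 2 fat libraries, at most 6.39. Every fat library had Tph1 gene counts, so most of these were assigned to other transcript rows, whose lengths were not used. Coding Tph1 transcripts of 1762 and 577 bases are also annotated, and with these Tph1 per kb would be higher. The comparison of Tph2 with Tph1 per kb was not repeated with them.

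The nearest genes on either side, among those with counts in this study, were not called between nuclei in eWAT on chow. Tbc1d15, which lies 12855 bases beyond the Tph2 start, had a log2 fold change of -0.22 ± 0.11 in eWAT on chow (C57n over C3Hn, adjusted p = 0.150 in edgeR). Trhde, 276334 bases beyond the end of Tph2, had 1.18 ± 0.45 (adjusted p = 0.0724). Between diets Tbc1d15 rose on HFD by 0.49 ± 0.08 in eWAT (adjusted p = 3.56e-05) and by 0.60 ± 0.05 in iWAT (adjusted p = 1e-08), and Trhde was not called in either depot by edgeR. On HFD Trhde was higher with the C57 nucleus, by 2.37 ± 0.48 in eWAT (adjusted p = 0.00159) and by 1.79 ± 0.38 in iWAT (adjusted p = 0.00176).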

How the data were processed

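RNA-seq of 59 fat and 16 muscle libraries was used, as deposited per gene and per transcript in a chow and an HFD table. The values are expected counts that the authors made with RSEM on mm9, per the submitters' processing notes, which also name DESeq2 1.10.1; read mapping used a proprietary algorithm of the sequencing company, per the labels, and counting by strand is not given in the sources used here. Of the deposited values 67.9% (chow) and 68.1% (HFD) were whole within 1e-09; all were rounded. Chow libraries had 22423 genes listed and HFD libraries 21983; a gene in 1 table counted as 0 in the other. Genes were kept by filterByExpr (minimum count 10, total 15, 70% of libraries of the smallest group), leaving 17781 in eWAT and 16888 in iWAT, and fitted per depot over its 8 groups with TMM and edgeR 4.0.16 (R 4.3.3), without a replicate block, with Benjamini-Hochberg adjustment over all genes and a threshold of 0.05. Correlations used log2 CPM with a prior count of 2 (Python 3.11.15, scipy 1.17.1). The fit was tested on simulated data. Each library of a group is a different animal by its label, so p-values measure the spread between animals; replicates were numbered in accession order and pair nothing. SEs were back-calculated from the edgeR fit, as the absolute log2 fold change over the square root of the F statistic. Intervals were made from these SEs with a t distribution. They include the spread between animals, while the 3-count floor covers counting error only. Tph2, its tests, and the gene lists were chosen with earlier results of these data known. Named genes were Tph2, Tph1, every gene of the serotonin and tryptophan lists called between diets, the 2 most abundant of a cell type list, and the 6 most like Tph2 by each measure; Trem2, Lep, Mest, Adipoq, Cd79a, Emr1, Ddc, Slc6a4, Fev and the neighbours were added after their values were seen. Some genes that this rule names are not reported here. Alternatives were DESeq2 1.42.0, no low-count filter, a joint fit of depots, sequencing run as a covariate, another prior count, and leaving out each library or the epithelial ones. Promoter motifs used the RefSeq tables (GRCm38.p6), and no protein sequence was used here.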

Additional observations from a re-analysis of the deposited data

Results flagged for a closer look

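Of 15 groups of 4 libraries, 4 held a library whose Tph2 CPM was far from the other 3 by Dixon's ratio. Chance flags about 1 in 20 groups of normally spread values, a rate that cannot be applied to the muscle groups with their 0 to 8 counts, where 1 count among zeros always gives the largest ratio. In iWAT of C57n:C3Hmt mice on HFD the highest library was at 18.4 CPM and the others between 0.555 and 2.34 CPM. In iWAT of C57n:C3Hmt mice on chow the highest library was at 18.6 CPM and the others between 0.173 and 0.391 CPM. In muscle of C57n:C3Hmt mice on chow the highest library was at 0.366 CPM, 8 counts, and the others between 0.0375 and 0.081 CPM. In muscle of C3Hn:C3Hmt mice on chow the highest library was at 0.0481 CPM, which is 1 count and below the 3-count floor, and the others were at 0.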

How the results depend on the processing

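No paired analysis was possible because the nuclei, mitochondria and diets compared hold different animals and replicate numbers follow accession order; depots were set side by side within animals without a test of the difference. The call between nuclei in eWAT on chow was kept under every alternative run, between -4.82 and -4.12 when 1 library was left out. Between nuclei in eWAT on HFD, Tph2 passed with DESeq2 (-2.10) and without epithelial libraries (-2.27), and ran from -3.66 to -1.81 with 1 library left out. In iWAT on chow it passed with DESeq2 (-2.32) and with run as a covariate (-2.32), and ran from -4.39 to -2.11. The run covariate could not adjust comparisons within chow, where all libraries shared 1 run. In iWAT on HFD it ran from -1.29 to 0.022. C57n:C3Hmt over C57n:C57mt on HFD in eWAT ran from -4.56 to -0.92, and on chow it ran from -0.62 to 0.046 in eWAT and from -0.23 to 4.33 in iWAT. The interaction of diet with nucleus ran from 0.96 to 2.77 in eWAT. The iWAT interaction of diet with nucleus ran from 1.04 to 4.03, and that with mitochondria in C3Hn mice from -0.47 to 0.78, with -0.28 under run as a covariate. The described diet difference ran from 2.02 to 3.04 in eWAT and from 1.26 to 2.76 in iWAT, where run as a covariate gave 0.45. That covariate weighs the HFD runs equally, including the run that held a single C3Hn:C3Hmt library. The number of serotonin-list genes called between diets ran from 8 to 13 in eWAT and from 7 to 14 in iWAT, the 14 without the C3Hn:C3Hmt HFD library of its own run. Of 10 lists set against Tph2, 2 passed in eWAT on chow (5 without epithelial libraries), 2 in eWAT on HFD (0 after subtraction of group means, 4 without epithelial libraries), 1 in iWAT on chow (2 after subtraction) and 1 in iWAT on HFD (2 with a prior count of 0.5 and 2 after subtraction, 0 without the 2 farthest libraries). With the adipocyte list, r reversed to -0.883 in eWAT on chow without epithelial libraries, to -0.392 in iWAT on HFD without the 2 farthest libraries (-0.357 to 0.392 with 1 left out) and to -0.437 in iWAT on chow within C3Hn. The chow relation between depots did not pass after subtraction of genotype means (0.917) or without 2 animals (0.654). The cause of these changes was not tested. At 3 to 19 counts a library, differences among C57n eWAT libraries on chow were limited by depth.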

Other observations

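Muscle and inguinal fat came from the same animal for 10 chow mice. The animal with the most Tph2 counts in muscle, 8, was 2105, whose inguinal fat had 18.6 CPM. Animal 3204 had 4 counts and 15.4 CPM. Animal 3102 had 2 counts and 16.3 CPM, and animal 3202 had 2 counts and 0.423 CPM. The other 6 had 0 or 1 count in muscle and 0.173 to 4.26 CPM in inguinal fat.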
